A study of Rattus norvegicus with 19 samples.

Results

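The alcohol and aldehyde dehydrogenase families were followed through 8 genes in the renal cortex of male Crl:CD (SD) rats, namely Adh1, Adh5, Adh7, Aldh1a1, Aldh1b1, Aldh1l1, Aldh2 and Aldh3a2. They were taken as the probes that carry these names in the scanner files, and 7 of them are among the 24217 genes tested. The 8 genes were selected on the measured differences of these same arrays, so their differences between groups are given as descriptions. No p-value is given for them, and the count of those past the threshold of the fit to all genes supports nothing. In all 9 probes carried the names, 2 of them for Aldh2. A filter removed probes whose signal stood clear of the background, by the scanner's own mark, on fewer than 5 of 19 arrays. It was passed by 7 of the 8 genes and not by Adh7, which was well above background on 1 array.

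Each of the 19 arrays held the cortical RNA of 1 rat, labelled in a single colour. Sham rats (n = 5) received vehicle intravenously and normal feed. DKD rats (n = 7) were given streptozotocin at 65 mg/kg, which destroys pancreatic beta cells, 7 days before grouping and then normal feed. DKD+enarodustat rats (n = 7) received the same injection, and enarodustat was mixed into their feed at 0.01% (w/w). Enarodustat blocks HIF prolyl hydroxylases, the enzymes through which oxygen leads to the breakdown of hypoxia-inducible factors (HIF). The diabetic groups were matched on body weight and blood glucose, and the kidneys were taken 14 days later. All 3 groups share sex and stock, and the diabetes modelled is one of lost insulin with a short course. The question the design puts is how diabetes of this kind changes expression in the cortex and how the HIF stabiliser alters that change.

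Alcohol dehydrogenases oxidise alcohols to aldehydes with NAD as the acceptor, and aldehyde dehydrogenases carry the aldehydes on to acids. Adh1 encodes the class I enzyme, which takes ethanol and retinol, Adh5 the class III enzyme, which clears formaldehyde bound to glutathione, and Adh7 the class IV enzyme, known for retinol oxidation in stomach and surface epithelia. Aldh1a1 turns retinal into retinoic acid in the cytosol, Aldh2 and Aldh1b1 oxidise acetaldehyde and other small aldehydes in mitochondria, Aldh1l1 turns formyl-tetrahydrofolate into tetrahydrofolate and carbon dioxide, and Aldh3a2 oxidises long-chain fatty aldehydes. The kidney cortex is rich in proximal tubule, which expresses several of these enzymes.

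The probe sequences below, as the scanner files give them from 5′ to 3′, show what the arrays read for the gene that differed most between the groups, for the gene read by 2 probes and for the gene without a mapped position. Probe positions are on rn4.
Adh1, chr2:235810196-235810962, plus strand: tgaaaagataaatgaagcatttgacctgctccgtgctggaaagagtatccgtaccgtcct
Aldh2, chr12:36114825-36116118, plus strand: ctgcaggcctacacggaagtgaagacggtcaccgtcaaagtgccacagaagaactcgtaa
Aldh1l1, unmapped in the files: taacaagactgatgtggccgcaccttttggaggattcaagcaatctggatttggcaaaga
The 60-base probe of Adh1 covers 767 bases of the genome and that of Aldh2 covers 1294, so each reads across at least 1 intron of a spliced transcript. The other Aldh2 probe lies at chr12:36116383-36116442. The remaining probes lie at chr2:235991418-235991477 (Adh5), chr2:235764840-235764899 (Adh7), chr1:223773152-223773211 (Aldh1a1), chr5:62316182-62316241 (Aldh1b1) and, on the minus strand, chr10:47400749-47400808 (Aldh3a2). RefSeq names the transcript under the Adh1 probe Adh1c, and the name of the files is kept here. How far these probes bind transcripts of near relatives was not tested.

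Enarodustat acts on the HIF pathway, and the core of the element that HIF binds is ACGTG or GCGTG. Promoters of 300 bases, from 250 bases before to 50 after the start of the gene, were taken from RefSeq on GRCr8 for 7 of the 8 genes, and the core was searched on both strands, with overlapping matches counted once. The windows of the most shifted member, of its neighbour Adh6 and of Adh5 are shown, with each match in capitals.
Adh1, chr2:229470453-229470752, plus strand: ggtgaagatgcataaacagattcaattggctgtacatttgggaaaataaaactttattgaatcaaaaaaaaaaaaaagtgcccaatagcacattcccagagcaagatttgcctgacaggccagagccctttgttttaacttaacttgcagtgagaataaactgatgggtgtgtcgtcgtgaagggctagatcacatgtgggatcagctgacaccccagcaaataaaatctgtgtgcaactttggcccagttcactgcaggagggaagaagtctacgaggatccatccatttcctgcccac
Adh6, chr2:229576386-229576685, plus strand: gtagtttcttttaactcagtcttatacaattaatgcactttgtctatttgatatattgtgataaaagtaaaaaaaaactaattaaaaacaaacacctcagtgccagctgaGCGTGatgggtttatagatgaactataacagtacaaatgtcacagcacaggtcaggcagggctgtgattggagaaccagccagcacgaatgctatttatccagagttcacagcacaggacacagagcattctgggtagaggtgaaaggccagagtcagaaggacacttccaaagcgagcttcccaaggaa
Adh5, chr2:229648307-229648606, plus strand: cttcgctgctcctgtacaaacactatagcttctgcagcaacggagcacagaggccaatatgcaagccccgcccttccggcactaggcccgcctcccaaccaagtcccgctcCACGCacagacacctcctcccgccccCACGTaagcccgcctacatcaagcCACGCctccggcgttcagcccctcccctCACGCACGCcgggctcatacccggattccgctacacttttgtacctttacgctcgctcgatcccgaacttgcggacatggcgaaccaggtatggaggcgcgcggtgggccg
The window of Adh1 held no core, that of Adh6 held 1 and that of Adh5 held 4. Of the 7 promoters, 3 held a core: those of Adh5, Adh7 and Aldh3a2. Over all 33469 promoters of this length the share was 41.6%. A match is a description of letters, and its absence says only that these letters are not in this window.

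Values below are normalized log2 signals, that is log2 of the processed spot intensity minus the 75th percentile of the array, so a value of 0 marks a probe at that percentile and 1 unit is a doubling. Differences carry the standard error of a limma fit to all genes and the 3 groups together, and the threshold is a Benjamini-Hochberg adjusted p of 0.05 in that fit. The share of probes well above background ran from 61.0% to 67.3% on the 10 arrays of slide row 1 and from 54.4% to 62.9% on the 9 arrays of row 2. Row 1 held all Sham arrays and 5 DKD arrays, and row 2 held DKD replicates 2 and 4 and all DKD+enarodustat arrays. Row and group therefore cannot be told apart between DKD+enarodustat and Sham. Where slide row enters a fit as a covariate, its effect is estimated only from DKD replicates 2 and 4 against the other 5 DKD arrays. All 12 proximal tubule markers were well above background on every array.

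Adh1, the ethanol and retinol dehydrogenase, was higher in diabetic cortex than in Sham cortex and higher again with enarodustat. In Sham the 5 arrays read 1.05, 1.96, 2.02, 1.51 and 1.62. The DKD arrays ran from 2.36 over a median of 2.86 to 3.61, and the DKD+enarodustat arrays from 3.05 over 3.95 to 4.38. Every diabetic array thus lay above every Sham array, while the diabetic groups overlapped through DKD replicates 3 and 4 and DKD+enarodustat replicate 6. The Sham mean was 1.63 ± 0.39 (SD, n = 5). The DKD mean was 2.89 ± 0.44 and the DKD+enarodustat mean 3.87 ± 0.45 (SD, n = 7 each). In these bulk samples a change in the number of expressing cells and a change in RNA per cell cannot be told apart.

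The log2 difference of Adh1 was 1.26 ± 0.24 (SE) for DKD against Sham, which is 2.39-fold. It was 0.98 ± 0.22 for DKD+enarodustat against DKD, 1.98-fold, and 2.24 ± 0.24 for DKD+enarodustat against Sham, 4.73-fold. Within an array the 10 spots of the Adh1 probe had a median SD of 0.07. The order of the 3 groups, Sham below DKD below DKD+enarodustat, held without overlap on each of the 3 slides. Of 24186 genes with a value on every array, 123 kept this order on each slide and 64 the reverse. Adh1 was selected on these same arrays, so its order by slide is a description.

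**Figure D1:**
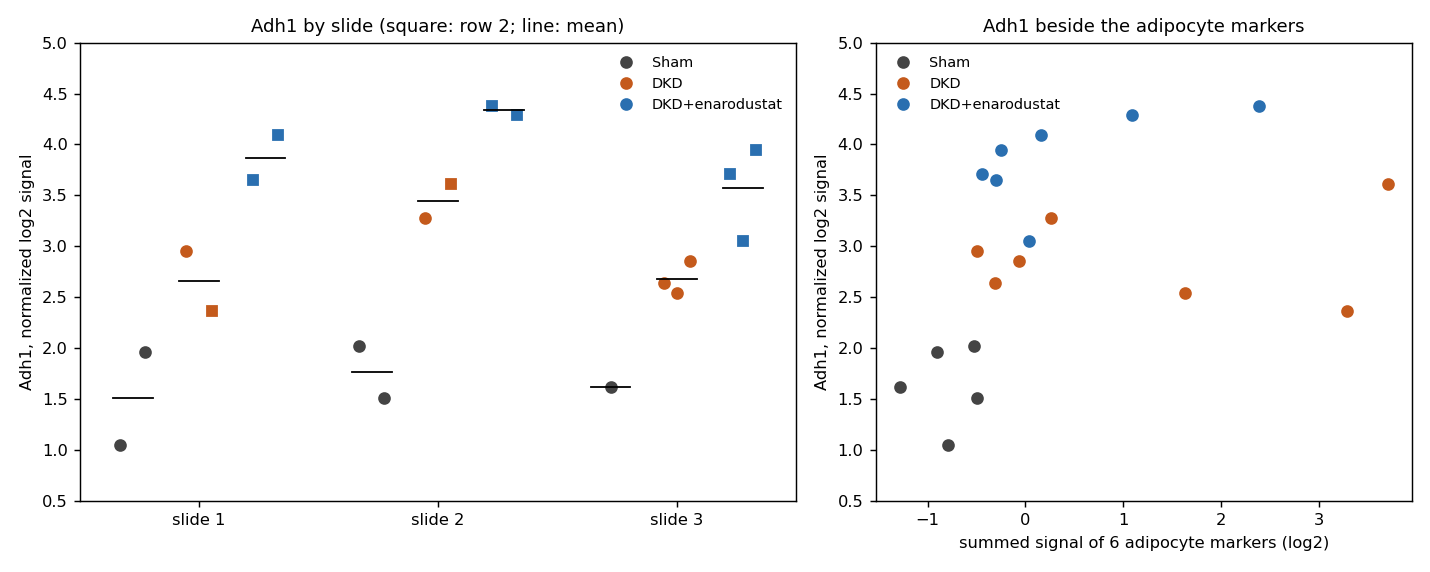
Normalized log2 signal of Adh1 by slide (left; circles are slide row 1, squares row 2, lines group means) and beside the log2 summed signal of 6 adipocyte markers (right; each point is 1 array). On every slide the groups are ordered Sham, DKD and DKD+enarodustat, and the DKD arrays with the highest adipocyte sums, 3.29 and 3.71, have the lowest and the highest Adh1 of that group.

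On slide 1 Adh1 read 1.05 and 1.96 in Sham, and the means were 2.65 in DKD and 3.87 in DKD+enarodustat. On slide 2 the means of Sham, DKD and DKD+enarodustat were 1.77, 3.44 and 4.33, and on slide 3, with a single Sham array, 1.62, 2.68 and 3.57. The difference between DKD+enarodustat and DKD was thus 1.21, 0.89 and 0.89 by slide, and within slide row 2 alone, against DKD replicates 2 and 4, it was 0.89. Over 14 fits that each left out 1 array of these groups the difference ran from 0.89 to 1.12.

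Adh1 is also expressed in fat, and adipocyte transcripts differed between rats. The summed signal of 6 adipocyte markers ran from -1.28 to -0.50 in Sham, from -0.50 to 3.71 in DKD and from -0.44 to 2.39 in DKD+enarodustat. Of the 5 adipocyte markers tested, 3 rose and 0 fell in DKD against Sham and 2 rose in DKD+enarodustat against Sham. Plin1, a lipid droplet protein, was well above background on 0 Sham, 3 DKD and 0 DKD+enarodustat arrays. For Lep, the fat hormone leptin, the numbers were 0, 4 and 3. The other 4 markers, Adipoq, Fabp4, Cfd and Cidec, were well above background on all 19 arrays. Without DKD replicates 2 and 4, whose sums were highest, DKD exceeded Sham in Adh1 by 1.22, and DKD+enarodustat exceeded DKD by 1.02. These are also the DKD arrays of slide row 2, so fat and row are not separated by this fit. DKD replicate 6, with a sum of 1.63, stayed in. So did DKD+enarodustat replicate 3, with a sum of 2.39 and the highest Adh1, 4.38. The summed signal of 6 hepatocyte markers was also higher on every diabetic array than on every Sham array: it ran from -6.43 to -5.96 in Sham, from -5.87 to -3.51 in DKD and from -5.47 to -4.10 in DKD+enarodustat. These markers were dim. Cyp3a2, Cps1 and Tat were well above background on no array, Alb on 0 Sham, 4 DKD and 4 DKD+enarodustat arrays, Serpina1 on 1, 5 and 4, and Apoa1 on 0, 1 and 2. Of the 2 hepatocyte markers tested, 0 passed in DKD against Sham and 1 rose in DKD+enarodustat against Sham. The summed signal of the proximal tubule markers was 9.23 to 9.42 in Sham, 8.51 to 8.79 in DKD and 8.38 to 8.79 in DKD+enarodustat, and 8 of 12 fell and 2 rose in DKD against Sham. The sum adds unlogged signals, so bright markers weigh most. Kap, the brightest in Sham, went from a mean of 7.35 to 3.40 in DKD and 2.70 in DKD+enarodustat. The next brightest, Fbp1, went from 7.13 to 6.83 and 6.73. The sum without Kap was not taken. Sums of thick ascending limb (6.91 to 7.18 in Sham, 5.82 to 6.77 in DKD) and podocyte markers (3.36 to 3.65, 2.90 to 3.34) were lower on every DKD array. That of smooth muscle markers (0.01 to 0.43 in Sham, 0.50 to 1.19 in DKD) was higher. Sham and DKD overlapped in the sums of collecting duct, leukocyte, erythroid, endothelial, adrenal cortex and urothelial markers. The part of cell makeup in the Adh1 values was not tested beyond these measurements.

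**Figure D2:**
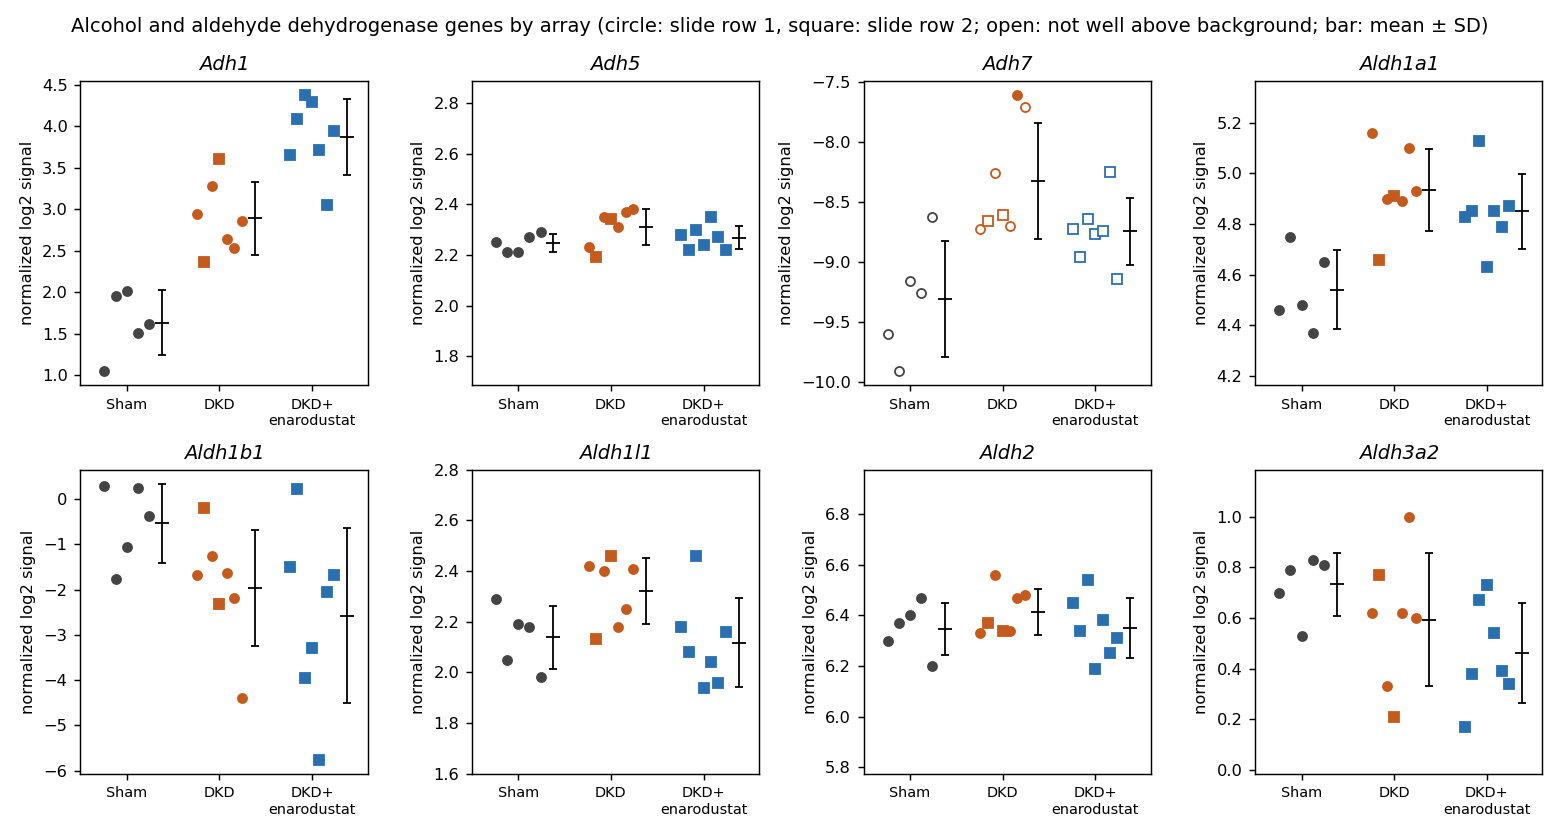
Normalized log2 signal of the 8 genes on each of the 19 arrays, by group. Circles are arrays of slide row 1, squares arrays of row 2, open symbols arrays on which the probe was not well above background, and bars the group mean with its SD. Adh1 climbs from Sham (mean 1.63) to DKD+enarodustat (3.87), Aldh1a1 is higher in both diabetic groups, Aldh1b1 scatters over several units, and Adh7 is nearly always below background.

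Adh5, the formaldehyde dehydrogenase, differed by at most 0.07 between group means. It read 2.21 to 2.29 in Sham with a median of 2.25, 2.19 to 2.38 in DKD with a median of 2.34, and 2.22 to 2.35 in DKD+enarodustat with a median of 2.27. The groups overlapped in all 3 comparisons. The differences were 0.07 ± 0.05 for DKD against Sham, -0.04 ± 0.04 for DKD+enarodustat against DKD and 0.02 ± 0.05 for DKD+enarodustat against Sham, and the first turned to -0.01 or -0.02 under quantile scaling. There were 10 spots for this gene on each array, with a median SD of 0.05.

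Adh7, the class IV retinol dehydrogenase, was well above background on 1 of 19 arrays, DKD replicate 6. Its values ran from -9.91 to -8.63 in Sham, from -8.73 to -7.61 in DKD and from -9.14 to -8.25 in DKD+enarodustat. No fold is given for values at background. This gene thus stayed out of the counts of genes past the threshold below, except those of the fit without the filter on dim probes. It also entered the check for outlying arrays.

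Aldh1a1, the retinal dehydrogenase of the cytosol, was higher in both diabetic groups than in Sham. The Sham arrays read 4.46, 4.75, 4.48, 4.37 and 4.65. The DKD arrays ran from 4.66 over a median of 4.91 to 5.16, and the DKD+enarodustat arrays from 4.63 over 4.85 to 5.13. The lowest DKD array, replicate 2, and the lowest DKD+enarodustat array, replicate 4, lay within the Sham range. By mean the order was Sham 4.55 ± 0.15, DKD+enarodustat 4.85 ± 0.15 and DKD 4.94 ± 0.16 (SD, n = 5, 7 and 7), and the diabetic groups differed by less than 1 SD.

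The Aldh1a1 difference was 0.39 ± 0.09 (SE) for DKD against Sham, 1.31-fold, and 0.30 ± 0.09 for DKD+enarodustat against Sham, 1.23-fold. Between the diabetic groups it was -0.09 ± 0.09, and 0.06 with slide row as a covariate. By slide the DKD difference from Sham was 0.31, 0.48 and 0.32. It was 0.24 in the authors' deposited value table. For DKD+enarodustat against Sham, quantile scaling gave 0.13 in place of 0.30, or 0.12 with normexp correction, the authors' table gave 0.15, and slide row as a covariate gave 0.51.

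Aldh2, the main acetaldehyde dehydrogenase of mitochondria, differed by less than 0.15 between groups on both of its probes. On the probe that stands for the gene the values ran from 6.20 to 6.47 in Sham, from 6.33 to 6.56 in DKD and from 6.19 to 6.54 in DKD+enarodustat. The differences were 0.07 ± 0.07, -0.06 ± 0.06 and 0.01 ± 0.07 in the order DKD against Sham, DKD+enarodustat against DKD and DKD+enarodustat against Sham. The second probe gave 0.04 ± 0.10, -0.13 ± 0.09 and -0.09 ± 0.10.

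Aldh1b1 varied far more between rats than any other of the 7 genes. The Sham arrays read 0.29, -1.76, -1.07, 0.23 and -0.38. The DKD arrays ran from -4.40 over -1.67 to -0.21, and the DKD+enarodustat arrays from -5.76 over -2.06 to 0.22. The means were Sham -0.54 ± 0.88, DKD -1.96 ± 1.28 and DKD+enarodustat -2.57 ± 1.94 (SD), yet the groups overlapped at each step. The differences were -1.42 ± 0.83, -0.62 ± 0.76 and -2.04 ± 0.83. The last of these was -2.50 without DKD+enarodustat replicate 2 and -1.21 in the authors' deposited value table. By slide the DKD difference from Sham was -0.21, -1.37 and -2.37, and that of DKD+enarodustat was 0.09, -3.20 and -2.79. The probe has 1 spot on each array, so its spot error is unknown, and it was well above background on all 19 arrays.

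Aldh1l1, which releases tetrahydrofolate, and Aldh3a2, the fatty aldehyde dehydrogenase, showed small differences. Aldh1l1 ran from 1.98 to 2.29 in Sham, from 2.13 to 2.46 in DKD and from 1.94 to 2.46 in DKD+enarodustat. Its differences were 0.19 ± 0.09 for DKD against Sham, -0.21 ± 0.08 between DKD+enarodustat and DKD, and -0.02 ± 0.09 between DKD+enarodustat and Sham. Aldh3a2 ran from 0.53 to 0.83 in Sham, from 0.21 to 1.00 in DKD and from 0.17 to 0.73 in DKD+enarodustat. Its differences were -0.14 ± 0.12, -0.13 ± 0.11 and -0.27 ± 0.12. All groups of both genes overlapped.

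Counted over the 7 genes tested, 2 were past the threshold in DKD against Sham, 1 in DKD+enarodustat against DKD and 2 in DKD+enarodustat against Sham. Over all genes tested the shares past the threshold were 17.1%, 2.00% and 26.1% in that order. Groups did not overlap for 1, 0 and 1 of the 7 genes, in each case Adh1, against 10.7%, 1.25% and 14.4% of all genes. The median difference of the 7 genes was 0.07, -0.09 and 0.01, and that of all genes -0.02, -0.02 and -0.04. The genes past it were Adh1 in all 3 comparisons and Aldh1a1 in both comparisons with Sham. Between the diabetic groups Adh1 was not past it with median centring, with slide row as a covariate, in a fit of the 2 groups alone, or without DKD replicate 2, 5, 6 or 7 or DKD+enarodustat replicate 2, 3, 4 or 7. In DKD+enarodustat against Sham Aldh1a1 was not past it with quantile scaling, median centring, slide row as a covariate, the authors' table or the replicate number as a block, nor without Sham replicate 1, 3 or 4. The genes were picked with these contrasts known, so nothing is read from these counts. The comparisons share the DKD or the Sham arrays.

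Adh1 has neighbours of its own family on chromosome 2, and the scanner files place the probes in the order Adh7, Adh1, Adh6a, Adh6, Adh4 and Adh5. Adh6, at chr2:235931239-235931298, encodes a further alcohol dehydrogenase of the cluster. Its Sham arrays ran from -7.35 to -6.90 with a median of -7.14, its DKD arrays from -6.73 over -5.67 to -5.23 and its DKD+enarodustat arrays from -6.52 over -4.13 to -2.02. Adh6 rose by 2.76 ± 0.56 (SE) in DKD+enarodustat against Sham, with an adjusted p of 0.00149 in limma, and every treated array lay above every Sham array. The difference was 1.21 ± 0.56 for DKD against Sham (adjusted p = 0.161, groups without overlap) and 1.55 ± 0.51 for DKD+enarodustat against DKD (adjusted p = 0.146). With the replicate number as a block both passed, at 1.47 (adjusted p = 0.0309) and 1.55 (adjusted p = 0.0493) in limma. The probe was well above background on 4 of 5 Sham arrays and on all diabetic arrays. With normexp correction and quantile scaling the differences were 0.81 for DKD+enarodustat against Sham, 0.18 for DKD against Sham and 0.62 between the diabetic groups.

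The neighbours on either side of Adh6 did not pass in any comparison. Adh6a differed by 0.52 ± 0.35 in DKD against Sham and by 0.02 ± 0.32 in DKD+enarodustat against DKD. Its Sham arrays read -5.63, -5.30, -3.05, -5.43 and -5.51. The DKD arrays ran from -4.95 to -3.80 and the DKD+enarodustat arrays from -4.84 to -4.05. Sham replicate 3 thus lay above every diabetic array, and the other Sham arrays lay below every one. Adh4 differed by 0.24 ± 0.44 and -0.10 ± 0.40. Adh5 lies at the end of the cluster. Between group means, differences of over 1 log2 unit were thus seen at Adh1 and Adh6. For Adh6a the size of the difference depends on Sham replicate 3, which raises the Sham mean. By median Adh6a read -5.43 in Sham, -4.64 in DKD and -4.42 in DKD+enarodustat. The means therefore do not set Adh6a apart from Adh1 and Adh6.

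**Figure D3:**
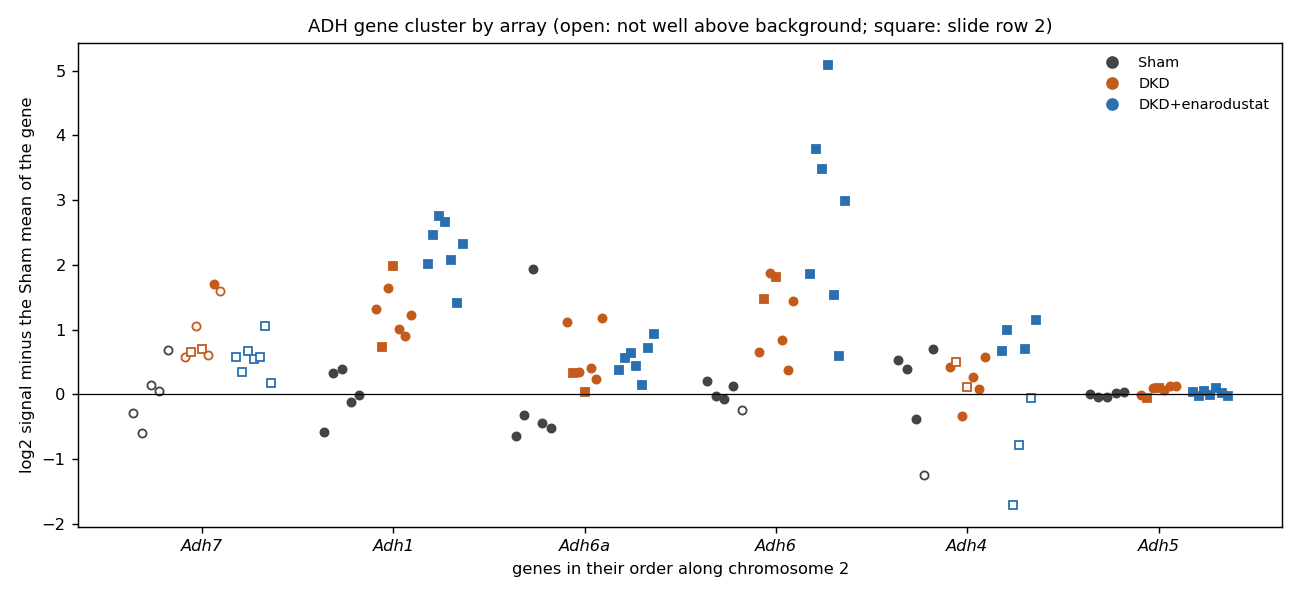
Log2 signal of 6 alcohol dehydrogenase genes on each array minus the Sham mean of the gene, in their order along chromosome 2. Open symbols are arrays on which the probe was not well above background, and squares are arrays of slide row 2. Adh1 and Adh6 stand above their Sham means in DKD+enarodustat, by 2.24 and 2.76 on average, while Adh5 stays within a narrow band.

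Among all 18 other genes of both families, every one of which was tested, 1 rose and 2 fell in DKD against Sham, 0 rose and 1 fell in DKD+enarodustat against DKD, and 1 rose and 4 fell in DKD+enarodustat against Sham. Their median differences were 0.16, -0.10 and -0.02. Over all genes tested, 17.1%, 2.00% and 26.1% were past the threshold in that order, and nothing is read from the family counts. Adhfe1, an iron-dependent mitochondrial enzyme that oxidises gamma-hydroxybutyrate, rose by 0.51 ± 0.10 in diabetes (adjusted p = 0.00145, limma). It ran from -0.33 to -0.14 in Sham and from -0.09 to 0.47 in DKD. It fell by -0.45 ± 0.09 with enarodustat (adjusted p = 0.0107), to between -0.51 and 0.03, and ended 0.06 ± 0.10 from Sham (adjusted p = 0.723). Adjusting for slide row gave -0.29 for the difference with enarodustat (adjusted p = 0.540), and within row 2 it was -0.29 as well.

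Aldh8a1, a dehydrogenase of the tryptophan breakdown route that also takes retinal, fell by -0.54 ± 0.10 in DKD (adjusted p = 0.000854, limma) and by -0.61 ± 0.10 in DKD+enarodustat against Sham (adjusted p = 0.000163). Its lowest Sham array, at 0.78, lay above the highest of both diabetic groups, 0.65 and 0.52. Aldh16a1, a family member of little known activity, fell by -0.23 ± 0.06 in DKD (adjusted p = 0.0193) and by as much in DKD+enarodustat (adjusted p = 0.0137). Its call in DKD ended without Sham replicate 3 or 4 and without DKD replicates 2 and 4 (-0.17). Aldh6a1, of valine breakdown, fell by -0.49 ± 0.12 in DKD+enarodustat against Sham (adjusted p = 0.00615). Aldh4a1, of proline breakdown, fell by -0.25 ± 0.09 there (adjusted p = 0.0444), and that call ended without any 1 Sham array and without DKD+enarodustat replicate 1, 2, 3, 4 or 7. With slide row as a covariate 0 of the 5 calls in DKD+enarodustat against Sham were left. Adh6 was then at 2.15, Aldh8a1 at -0.33, Aldh6a1 at -0.08, Aldh16a1 at -0.03 and Aldh4a1 at 0.13. The row effect in that fit comes from the DKD arrays alone, so it was not measured in the groups compared.

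**Figure D4:**
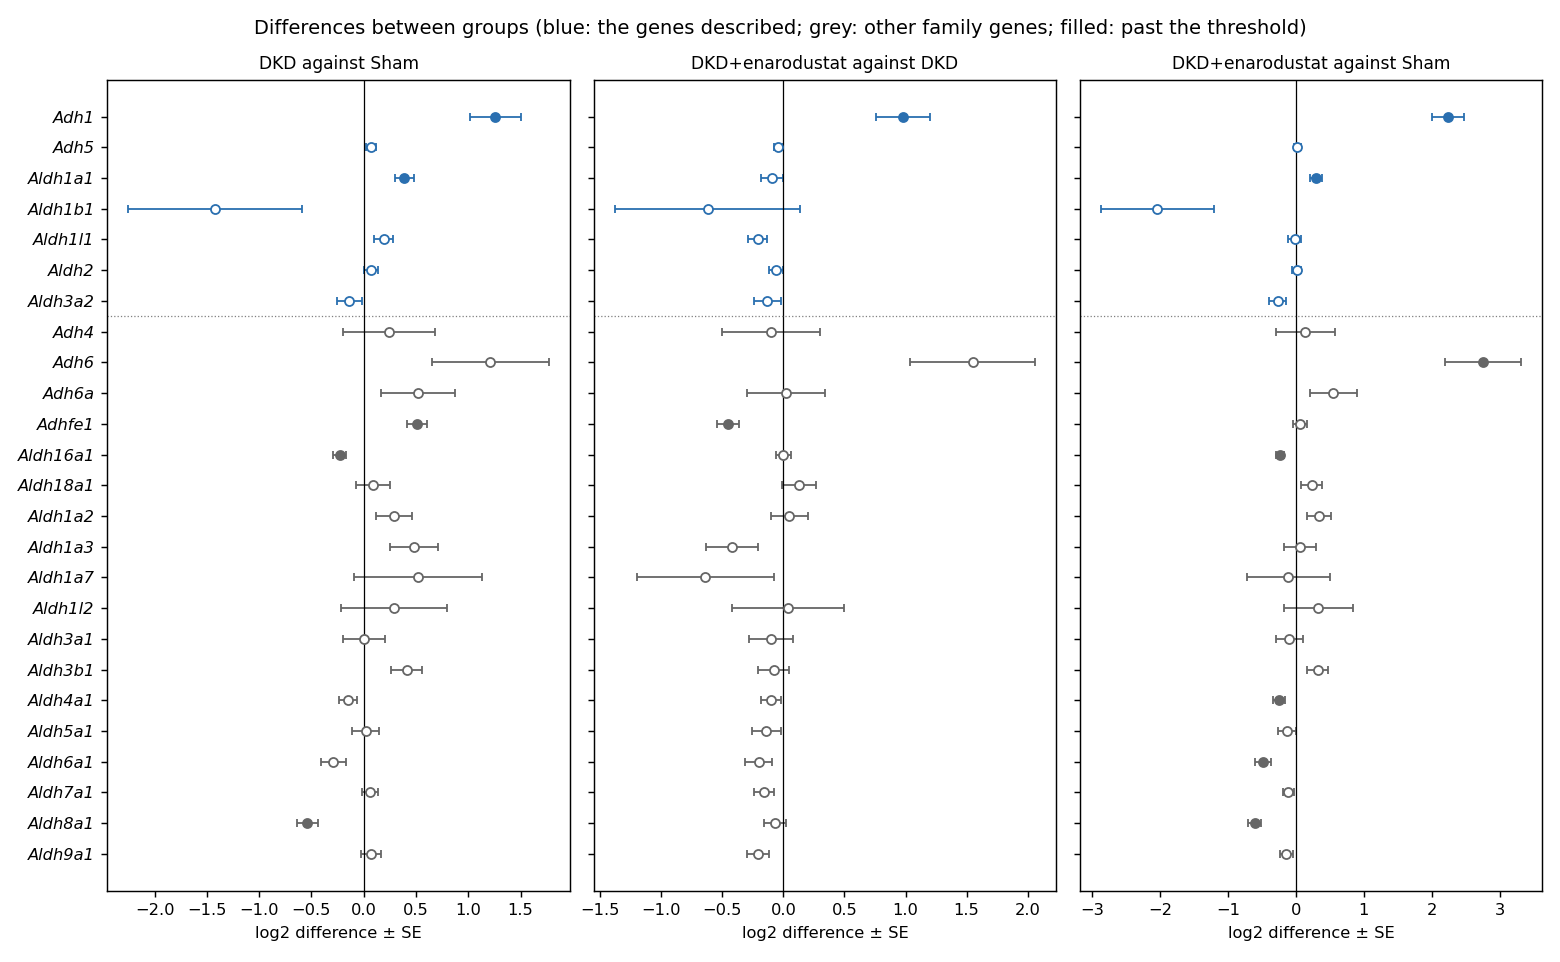
Log2 difference with its standard error for the 7 genes tested (blue, above the dotted line) and for the 18 other genes of both families (grey) in the 3 comparisons. Filled points passed the threshold in the joint fit. Adh1 and Adh6 lie farthest to the right in DKD+enarodustat against Sham, at 2.24 and 2.76, and Aldh1b1 has the widest error bar among the blue points.

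The wider pathways of these enzymes were read from fixed lists. For each list count, the share of all genes past the threshold was 17.1% in DKD against Sham. It was 2.00% in DKD+enarodustat against DKD and 26.1% in DKD+enarodustat against Sham. No list was tested as a set, and the counts are descriptions. In retinoid metabolism, to which Adh1, Adh7 and Aldh1a1 belong, 4 of 25 genes tested rose and 3 fell in DKD against Sham, 0 passed in DKD+enarodustat against DKD, and 4 rose and 5 fell in DKD+enarodustat against Sham. Stra6, the cell-surface receptor for retinol-binding protein, rose by 1.30 ± 0.16 in DKD (adjusted p = 2.58e-05, limma) and by 1.43 ± 0.16 in DKD+enarodustat against Sham. Bco1, which cleaves beta-carotene to retinal, rose by 1.59 ± 0.26 and 2.20 ± 0.26, and Rdh7, a microsomal retinol dehydrogenase, fell by -2.12 ± 0.31 and -1.76 ± 0.31. The groups of these 3 genes did not overlap in either comparison with Sham.

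In ethanol and acetate handling, 2 of 7 genes rose in DKD against Sham. Cyp2e1, the ethanol-inducible cytochrome, rose by 0.99 ± 0.23 (adjusted p = 0.00534, limma) and Acot12, which splits acetyl-CoA to acetate, by 1.31 ± 0.32 (adjusted p = 0.00877). In DKD+enarodustat against Sham 1 rose and 3 fell. Cyp2e1 rose by 0.67 ± 0.23, and Acot12 was at 0.73 ± 0.32 (adjusted p = 0.105). Acss2, the cytosolic acetyl-CoA synthetase, fell by -0.94 ± 0.27, the peroxisomal catalase Cat by -0.49 ± 0.13 and Acss3 by -0.32 ± 0.08. In DKD against Sham these 3 were at -0.56 ± 0.27, -0.19 ± 0.13 and -0.16 ± 0.08 and did not pass. In DKD+enarodustat against DKD 0 of the 7 passed.

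In folate metabolism, the setting of Aldh1l1, 5 of 25 genes rose and 3 fell in DKD against Sham. Mtr, the methionine synthase, fell by -0.66 ± 0.09 (adjusted p = 6.35e-05, limma) and by -0.84 ± 0.09 in DKD+enarodustat against Sham (adjusted p = 3.14e-06). Amt, of the glycine cleavage system, rose by 0.94 ± 0.12 in DKD and by 0.71 ± 0.12 in DKD+enarodustat against Sham. Ggh, which trims folate polyglutamates, fell by -0.60 ± 0.10 in both comparisons. Of the list, 7 rose and 6 fell in DKD+enarodustat against Sham. Between the diabetic groups Mtrr, the reductase that keeps Mtr active, fell by -0.25 ± 0.06 (adjusted p = 0.0417) and Dld, a lipoamide dehydrogenase, by -0.28 ± 0.07 (adjusted p = 0.0461). Each of these calls ended in 12 of the 14 fits that left out 1 array, and that of Mtrr with the replicate block (limma, adjusted p = 0.0531).

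In formaldehyde and glutathione conjugate handling, the setting of Adh5, 1 of 11 genes rose and 4 fell in DKD against Sham. The microsomal glutathione transferase Mgst1 rose by 0.87 ± 0.13 (adjusted p = 0.000204, limma). Hagh, a glyoxalase, fell by -0.67 ± 0.10 and Cbs, the first enzyme from homocysteine to cysteine, by -0.69 ± 0.15. In DKD+enarodustat against Sham the differences of these genes were 0.63 ± 0.13, -0.70 ± 0.10 and -0.74 ± 0.15, and 2 of the list rose and 5 fell. In DKD+enarodustat against DKD 0 of 11 passed.

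In fatty aldehyde and sphingolipid breakdown, around Aldh3a2, 4 of 15 genes rose and 4 fell in DKD against Sham. Far1, which makes fatty alcohols from fatty acyl-CoA, fell by -0.75 ± 0.08 (adjusted p = 6.06e-06, limma) and by -0.94 ± 0.08 in DKD+enarodustat against Sham. Pecr, a peroxisomal enoyl-CoA reductase, fell by -0.54 ± 0.10 and -0.53 ± 0.10. Sgpl1, the lyase that releases a fatty aldehyde from sphingosine phosphate, rose by 0.29 ± 0.06 in DKD and by 0.21 ± 0.06 in DKD+enarodustat against Sham. The sphingosine kinase Sphk2 fell by -0.54 ± 0.15 and -0.76 ± 0.15. Of the list, 1 rose and 5 fell in DKD+enarodustat against Sham. Of the 15, 0 passed between the diabetic groups.

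Among aldo-keto and carbonyl reductases, which turn aldehydes back into alcohols, 1 of 19 genes rose and 1 fell in DKD against Sham. The carbonyl reductase Cbr1 rose by 0.45 ± 0.13 (adjusted p = 0.0185, limma), a call that ended without Sham replicate 1 (0.38) and without DKD replicates 2 and 4 (0.42). It rose by 0.45 ± 0.13 in DKD+enarodustat against Sham as well. Dcxr, the xylulose reductase of the proximal tubule, fell by -0.67 ± 0.11 in DKD and by -0.59 ± 0.11 in DKD+enarodustat against Sham. With the probes of the gene averaged it fell by -0.99 and -1.39. Its probes thus differ in the size of the fall, and the order of the diabetic groups depends on the probe. Akr7a2 fell by -0.34 ± 0.08 in DKD+enarodustat against Sham, where 1 rose and 3 fell. In DKD against Sham Akr7a2 was at -0.25 ± 0.08 (adjusted p = 0.0506). Of the 19, 0 passed between the diabetic groups. With slide row as a covariate, whose effect is estimated within the DKD arrays alone, Stra6, Bco1, Mtr, Far1 and Pecr kept their calls in DKD+enarodustat against Sham. The calls of 12 others there were lost, with differences within 1.5 times of those above for Rdh7 (-1.68), Hagh (-0.59), Sphk2 (-0.64), Ggh (-0.45), Cat (-0.33) and Cbr1 (0.35). The rest were at -0.48 for Acss2, -0.36 for Dcxr, 0.32 for Mgst1, -0.15 for Acss3, -0.10 for Akr7a2 and -0.10 for Cbs. Cyp2e1, Amt and Sgpl1, also past the threshold there, are not part of this tally.

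Genes whose signals ran most like those of each member over the 19 arrays were listed as a description, since arrays share groups, slides and rows. For Adh1 they were the galactokinase Galk1 (r = 0.920), the selenium-binding protein gene Selenbp1 (0.918) and the glycolytic enzyme Tpi1 (0.917), and after the group means were removed r was 0.488, 0.583 and 0.727. For Aldh1a1 they were the purine synthesis gene Paics (0.896), Npffr2 (0.881) and Impa2 (0.870), with 0.754, 0.780 and 0.749 within groups. For Aldh2 they were Cyp4f40 (0.814), Fah (0.810) and Grina (0.804), and for Aldh1l1 Slc15a4 (0.859), Nfkbib (0.847) and Psmd11 (0.822). For Aldh1b1 they were Skint10 (0.798), Car5b (0.764) and Gc (0.760), for Aldh3a2 Fbxl15 (0.776), Dhx40 (0.744) and Nxnl2 (0.742), and for Adh5 Gtf2h5 (0.812), Ebna1bp2 (0.796) and Plpbp (0.769). Among the members themselves the closest pair was Aldh1l1 and Aldh2, with r = 0.633 over all arrays and 0.589 within groups. Adh1 and Aldh1a1 had r = 0.574 over all arrays and 0.276 within groups.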

How the data were processed

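Renal cortex RNA of 19 rats was measured on single-colour arrays, with 1 rat per array. Per the file headers, the deposited scanner files hold a background-subtracted intensity for each spot, from version 11.5.1.1 of Agilent's Feature Extraction. A table of log2 expression by the authors served as an alternative; how it was normalized is not given in the sources used here. The submitters' processing notes name limma, with no version. Log2 of the processed intensity was taken, the 75th percentile of the array subtracted, and spots of a probe averaged. Probes well above background on 5 or more arrays were kept, and each gene was represented by its brightest such probe on average, which gave 24217 genes. RefSeq names (GRCr8) came by accession for 21109 of 45598 probes and through another probe of the same name for 1977, and the others kept the name in the files. All 3 groups entered 1 limma model without covariates (version 3.58.1, R 4.3.3, lmFit and eBayes, 16 residual degrees of freedom). Tests were two-sided, with Benjamini-Hochberg adjustment over all genes of a comparison, and the model was tested on simulated data. The number of arrays limits the precision.

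The members and lists were chosen with earlier results of these data known. Named genes are all members, every other family gene past the threshold, per list and comparison up to 3 genes past it with the smallest adjusted p, the 3 genes most like each member, and, chosen after their values were seen, the neighbours of Adh1 on its chromosome. A gene of the folate list that this rule names is counted in the list but not reported here. Same-numbered arrays of different groups lay on 1 slide in all 17 pairs. Their deviations from the group means correlated at 0.133 to 0.594, with a median of 0.228. The numbers were therefore used as a block in an alternative fit, while the joint fit had no block. Arrays with other numbers on a shared slide gave 0.0606 to 0.518, with a median of 0.253, so pairing by number cannot be told apart from a shared slide. Alternatives changed the scaling, the filter, the probe rule, slide, row, pairing, the groups fitted and the arrays included. Leaving out the DKD arrays of slide row 2, and a comparison within row 2, were added after seeing the data.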

Additional observations from a re-analysis of the deposited data

Results flagged for a closer look

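In groups of 4 to 10 arrays, an array was singled out when its gap to the nearest other, over the range of the group, passed Dixon's 95% critical value. Of 114 groups over 38 genes, 4 did, where chance gives about 1 in 20, and none of them belongs to the 8 dehydrogenase genes described first. The cluster genes Adh6a and Adh4 were not among the genes checked. Dcxr read 2.39 in DKD replicate 2, with the nearest array at 2.78. Sgpl1 read 1.17 in DKD replicate 4, with the nearest at 0.88. In DKD+enarodustat replicate 4, Acot12 read -1.45 against -0.04 for the nearest array and Pecr 2.11 against 2.43.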

How the results depend on the processing

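The difference of Adh1 kept its sign under every alternative run, at 1.05 to 1.68 for DKD against Sham, 0.89 to 1.21 between the diabetic groups and 1.94 to 2.57 for DKD+enarodustat against Sham. No difference called in the joint limma fit among the 8 genes changed sign. Within slides, where slide 3 has 1 Sham array that is assumed to vary like the other groups, few genes passed. For DKD against Sham the numbers on slides 1, 2 and 3 were 0, 2 and 142 in place of 4140 (before adjustment, p was under 0.05 for 4218, 3646 and 3386), DKD+enarodustat against DKD 1, 0 and 0 (1712, 1880 and 2619) in place of 485, and DKD+enarodustat against Sham 14, 46 and 338 in place of 6311. Of the members 0 passed on slides 1 and 2 in any comparison. These fits hold fewer arrays.

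Between the diabetic groups, 291 genes passed with median centring, 1775 in the authors' table, 284 without the filter on dim probes, 915 with slide as a block, 84 with slide row as a covariate, 12 within row 2 and 276 in a fit of those 2 groups. Median centring, the row covariate, row 2 alone and the 2-group fit left 0 members there. For DKD+enarodustat against Sham, 10744 genes passed without the filter and 1031 with the row covariate, and 1 member passed with normexp and quantile scaling, quantile scaling alone, median centring, the row covariate or the replicate block. Beyond fewer arrays or another set of genes, the cause was not tested. Fits that left out 1 array gave 3156 to 3987 genes for DKD against Sham, 286 (without DKD replicate 6) to 497 between the diabetic groups and 5175 to 6513 for DKD+enarodustat against Sham, and 2, 0 to 1 and 1 to 3 members.

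Of the genes past the threshold in DKD against Sham, 46.9% were higher, against 34.7% with normexp and quantile scaling and 37.0% with quantile scaling alone. Between the diabetic groups the share was 53.4%, against 34.3% in the authors' table.

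With the replicate number as a block, 4555 genes passed in DKD against Sham, 644 between the diabetic groups and 7138 in DKD+enarodustat against Sham. Aldh9a1 then passed in DKD+enarodustat against Sham, at -0.22 (limma, adjusted p = 0.0288) in place of -0.14 (adjusted p = 0.324). Beside this and the calls of Aldh1a1, Adh6 and Mtrr given above, the block changed no call of a member, of another family gene or of a gene named from the lists.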
